A study of Homo sapiens with 46 samples.

Results

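The transcripts described here encode 10 enzymes that remove superoxide and peroxides, with emphasis on the mitochondrial ones: the peroxiredoxins PRDX3, PRDX5, PRDX1 and PRDX2, the superoxide dismutases SOD1 and SOD2, the mitochondrial thioredoxin TXN2 and its reductase TXNRD2, and the glutathione peroxidases GPX1 and GPX4. They were taken by gene name from a table of 58735 genes, of which 20272 had enough counts to be tested. The group was chosen by a measured value, the lower PRDX3 level after silencing of ND5 in these same libraries. For that reason the values after ND5 silencing are set against those of other conditions without a test, and tests between conditions are given for the other 10 treatments. The ND5 libraries stayed in the model, and they form part of the mean of the other 10 treatments wherever a treatment is set against it. All 10 members passed the filter on low counts. SOD2 is listed under a second identifier as well, ENSG00000285441, which held 0 to 9 counts per library and was not tested.

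HEK293T cells, derived from human embryonic kidney (the line used was HEK293-Flp-In T-Rex), were treated for 48 hours with a chimera of pCox4 and a morpholino, delivered with Endo-Porter. A morpholino is an uncharged antisense oligomer that blocks translation of the mRNA it pairs with, and pCox4 is a presequence that carries it into mitochondria. One chimera each was directed against the mtDNA-encoded mRNAs for ATP6, ATP8, COX1, COX2, COX3, CYTB, ND1, ND2, ND3, ND4L and ND5, at 2 µM, while control cells received pCox4 in click reaction buffer without a morpholino. Poly(A)-enriched RNA was sequenced in 46 libraries, 4 per condition except for COX2 and ND2 with 3. Replicates 1 and 2 belong to batch 1, and replicates 3 and 4 were made on another day with new reagents as batch 2. Hence COX2 (replicates 2, 3 and 4) and ND2 (replicates 1, 3 and 4) have only 1 library in batch 1. All conditions come from one cell line, and nothing in the sample records places the replicates in separate lines, so the p-values measure the spread between these libraries.

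The median library held 23413171 counts (18876395 to 100698084), and only COX3 replicate 4 was above 28121898. Genes of mtDNA took 3.80 to 5.34% of the counts. Of 8 marker genes of HEK293 cells, 7 had a median of at least 1 CPM (counts scaled to the size of the library), whereas the medians of all cardiomyocyte, hepatocyte and leukocyte markers were at or below 0.271 CPM. Of 4 fibroblast markers, LUM (4.77 CPM) and PDGFRA (1.58 CPM) were above 1 CPM. The mRNA of the silenced gene lay at 33.7 to 46.2% of the control of its batch after COX1 silencing and at 75.6 to 96.0% after ND5 silencing. It was above the control in every library after silencing of ND1, ND2 and ND3, where the lowest value was 152%. Such a check says little of the silencing itself, since the chimeras act on translation.

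Superoxide that leaks from the respiratory chain is turned into hydrogen peroxide by superoxide dismutases, SOD2 in the mitochondrial matrix and SOD1 in the cytosol and intermembrane space. Peroxiredoxins reduce hydrogen peroxide through a reactive cysteine. In the matrix PRDX3 takes the larger share of it and is recycled by TXN2, which TXNRD2 in turn reduces with NADPH. PRDX5 is found in mitochondria, peroxisomes and the cytosol, and PRDX1 and PRDX2 are mainly cytosolic. GPX1 uses glutathione for the same purpose in cytosol and mitochondria, and GPX4 removes lipid peroxides from membranes. GPX1, GPX4 and TXNRD2 contain selenocysteine.

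Because the group was chosen for PRDX3 after ND5 silencing, the ND5 morpholino was set against the transcripts of the members. It is shown first as it was designed, with its complete match to bases 3 to 25 of the MT-ND5 mRNA (GRCh38, chromosome MT, 12339 to 12361, plus strand, coding sequence), and then with its longest uninterrupted stretch of complementarity to PRDX3 in capitals. The lines below it show the sites in PRDX3 and GPX4, with that stretch in capitals and any other complementary base left in lower case, from GENCODE release 29 transcripts.

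ND5 morpholino: tggttatagtagtgtgcatggtt

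ND5 morpholino, longest stretch complementary to PRDX3 in capitals: tggttatagtagtGTGCATGGtt

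PRDX3 mRNA: agttcctcatgCCATGCACctgctgtcacc

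GPX4 mRNA: ctgtgcgcgctCCATGCACgagttttccgc

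The longest uninterrupted run of Watson-Crick complementarity to the 23 bases of the morpholino was 8 bases in PRDX3, and 41.2% of 20263 genes with a transcript sequence had a run at least as long. The run lies in the coding sequence, in exon 3 (GRCh38, chr10:119174575-119174582, minus strand), and the 30 bases printed cross the junction of exons 2 and 3. GPX4 carries the same 8 bases in the coding part of exon 2 (chr19:1105220-1105227, plus strand). SOD2 had a run of 8 bases as well, and the other 7 members had runs of 5 to 7. Without gaps, the best alignment paired 15 of 23 bases in PRDX3 and in SOD2, a number that 20.8% of genes reached. It paired 14 in PRDX1, PRDX2, TXN2 and TXNRD2 (59.8% of genes reached as many), 13 in GPX4 (89.6%) and 12 in PRDX5, SOD1 and GPX1 (97.9%). The part of this complementarity in the PRDX3 level was not tested.

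PRDX1 had the highest level per length of the 10 members, with a mean of 239 CPM per kilobase over the 46 libraries, followed by GPX1 (215), SOD1 (180), PRDX2 (152), GPX4 (123), PRDX3 (117) and PRDX5 (79.9 CPM per kilobase). TXN2 stood at 37.3, TXNRD2 at 6.06 and SOD2 at 4.54 CPM per kilobase. The deposited gene length is the union of all exons, which is 16493 bases for SOD2 and 8373 for TXNRD2, a length that lowers the level per length of any gene whose main transcript is shorter. Per gene rather than per length, mean levels ran from 50.7 CPM (TXNRD2) to 399 CPM (PRDX3), and each member exceeded at least 75.3% of the genes tested. The level of a member varied little among libraries. The highest library was 1.28 times the lowest for SOD2 and 1.72 times the lowest for PRDX1, the extremes of the group.

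**Figure D1:**
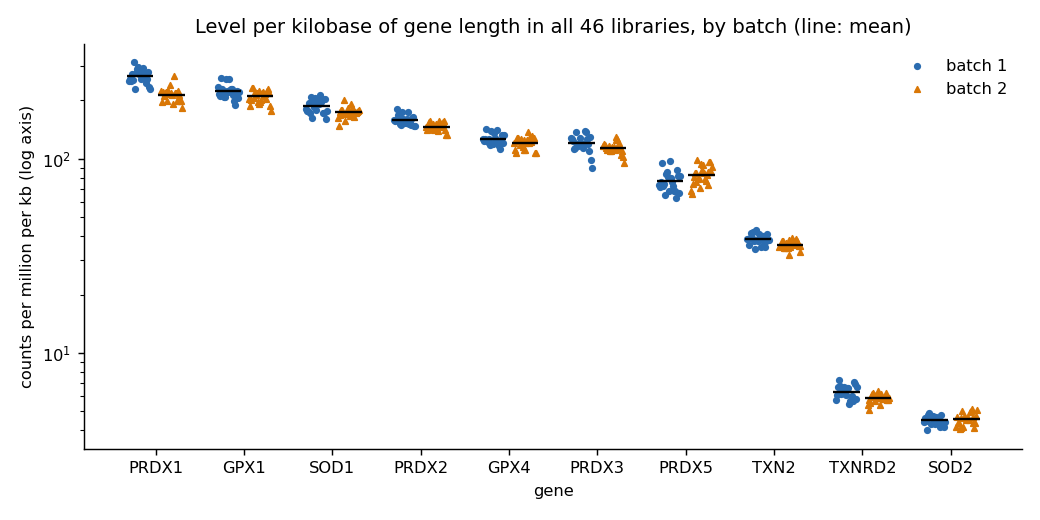
Level of each gene in CPM per kilobase of deposited gene length (log axis) in all 46 libraries; circles are batch 1, triangles batch 2 and lines the batch means. PRDX1 is highest at 239 and SOD2 lowest at 4.54 CPM per kilobase, and the batches differ most for PRDX1.

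After ND5 silencing, PRDX3 (ENSG00000165672; chromosome 10, 119167703 to 119178833, minus strand) was measured at 338, 305, 348 and 326 CPM in replicates 1 to 4. The control libraries held 437, 432, 398 and 405 CPM. The 4 ND5 libraries were below all 42 other libraries of the series. Relative to the batch controls they stood at 70.1 to 86.7%. The log2 fold change was -0.34 (SE 0.053), the value by which the group was chosen. In bulk RNA, fewer expressing cells and less mRNA per cell cannot be told apart. Of the 20272 genes tested, 6 (0.0296%) had the same order, with all 4 ND5 libraries below every other one, and 32 (0.158%) were called between ND5 and control. Nothing is read from these shares, since the contrast chose the gene.

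PRDX3 levels in the other 11 conditions formed a narrow series. ND1 was highest at 438 ± 28.6 CPM (SD, n = 4), followed by ND2 at 432 ± 34.4 (SD, n = 3), the control at 418 ± 19.3 (SD, n = 4), COX3 at 408 ± 22.8 (SD, n = 4) and ND3 at 408 ± 18.7 (SD, n = 4). ATP8 (406 ± 41.4 CPM; SD, n = 4), ATP6 (402 ± 15.2; SD, n = 4), COX1 (396 ± 10.3; SD, n = 4), CYTB (390 ± 9.74; SD, n = 4), ND4L (386 ± 37.1; SD, n = 4) and COX2 (384 ± 18.1; SD, n = 3) came next. Between neighbours in this order the gap never exceeded the larger SD of both. The step from COX2 down to ND5 (329 ± 18.7 CPM; SD, n = 4) was 55.0 CPM, and nothing is read from it, since the group was chosen by the ND5 value. For each of the other 9 members, none of the 11 gaps between neighbouring conditions exceeded the SD.

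**Figure D2:**
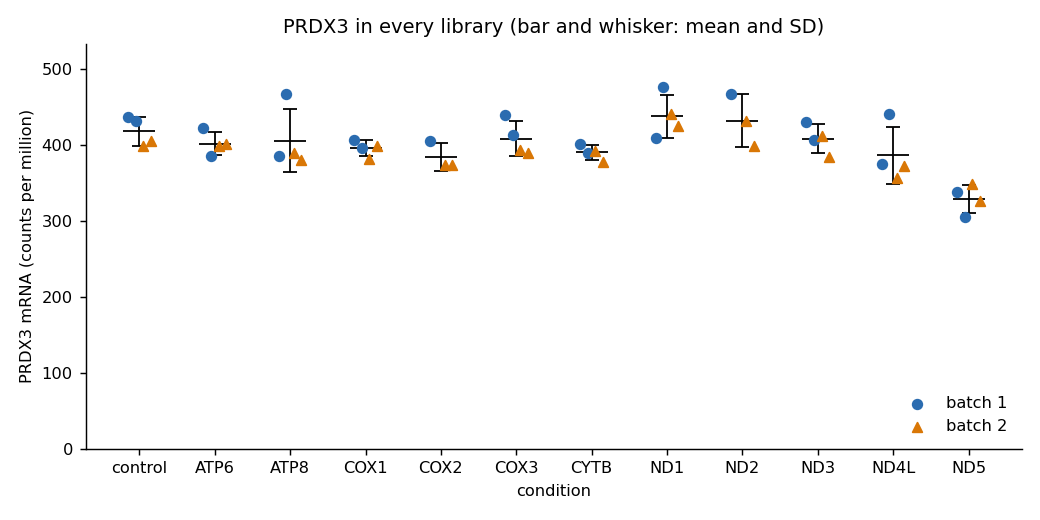
PRDX3 mRNA in CPM in every library of each condition; circles are batch 1, triangles batch 2, and bar and whisker give mean and SD. The 4 ND5 libraries, 305 to 348 CPM, lie below all others.

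The other members after ND5 silencing are given in the order of their role, again without a test. PRDX1 was at 358, 347, 303 and 277 CPM against 381, 391, 339 and 299 CPM in the control (log2 fold change -0.13, SE 0.061), and PRDX2 at 309, 309, 278 and 276 against 331, 328, 304 and 295 CPM (-0.10, SE 0.045). Every ND5 library of both was below the control mean of its batch, as was every one of PRDX3 and GPX1 among the 10 members and in 12.7% of all genes tested. No conclusion is drawn from this, since PRDX3 is among them and the same libraries chose the group. PRDX5 was at 59.5, 73.1, 76.7 and 81.1 CPM against 65.4, 63.9, 60.7 and 59.0 in the control (0.21, SE 0.090), with replicate 1 below the control and the other 3 above, and with 0.03 in batch 1 alone against 0.40 in batch 2 alone. The log2 fold changes were 0.06 (SE 0.064) for SOD1, 0.04 (SE 0.062) for SOD2, -0.01 (SE 0.057) for TXN2 and 0.11 (SE 0.063) for TXNRD2. When 1 library was left out they ran from 0.02 to 0.11 for SOD1, from -0.01 to 0.08 for SOD2, from -0.03 to 0.02 for TXN2 and from 0.08 to 0.15 for TXNRD2. In batch 1 alone SOD1 (-0.09), SOD2 (-0.09) and TXN2 (0.03) had the opposite sign. Over the other settings run, the highest values were 0.19 for SOD1 and 0.15 for SOD2. GPX1 was at -0.09 (SE 0.068) and GPX4 at -0.04 (SE 0.064), in a range of -0.14 to -0.05 and of -0.09 to -0.01 when 1 library was left out. GPX4 was at 0.02 in batch 1 alone, so its direction turned there. The median of the 10 members was -0.02, beside 0.00 over all genes tested. PRDX3, PRDX1, PRDX2, GPX1 and GPX4 each had their lowest mean of the 12 conditions after ND5 silencing, as did 10.2% of all genes tested. Nothing is read from this count, since it holds PRDX3 and uses the libraries that chose the group. Set against the mean of the other 10 treatments, which does not use the control libraries, the log2 fold change was -0.30 (SE 0.040) for PRDX3, -0.20 (SE 0.046) for PRDX1, -0.15 (SE 0.051) for GPX1, -0.14 (SE 0.034) for PRDX2 and -0.09 (SE 0.048) for GPX4. On the same scale it was -0.07 (SE 0.048) for SOD1, -0.06 (SE 0.042) for TXN2, -0.02 (SE 0.046) for TXNRD2, 0.02 (SE 0.046) for SOD2 and 0.01 (SE 0.066) for PRDX5.

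For the other 10 treatments, each member was tested against the control with edgeR's quasi-likelihood test, with the batch in the model and Benjamini-Hochberg adjustment over all genes. The 10 comparisons share the same 4 control libraries. Of 100 tests of a member, 1 passed an adjusted p of 0.05, against 0.172% of all tests of a gene in these comparisons, so the count of members called is a single gene in a single treatment. At an unadjusted p of 0.05 the count was 24 of 100, against 9.84% over all genes. Under other settings of the analysis the number called was 0 to 5, and the share of all tests called moved as well, from 0.0113 to 1.01%.

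The transcript that rose was PRDX5 (ENSG00000126432; chromosome 11, 64318088 to 64321811, plus strand) after CYTB silencing. The CYTB libraries held 87.3, 71.1, 78.2 and 83.0 CPM and the control libraries 65.4, 63.9, 60.7 and 59.0 CPM. No CYTB library overlapped a control library, an arrangement found upward in 2.38% of genes in this comparison. The log2 fold change was 0.36 (SE 0.090, adjusted p = 0.0424, edgeR; higher in 4 of 4 libraries), and 111 genes (0.548%) were called in the comparison. Within batches the log2 fold change was 0.30 in batch 1 (adjusted p = 0.505, edgeR) and 0.43 in batch 2 (adjusted p = 0.167, edgeR), where each group has 2 libraries. The call was lost in 9 of the 46 fits that left out 1 library, among them those without control replicates 2, 3 or 4 and without CYTB replicates 1, 2 or 4, with a log2 fold change of 0.29 to 0.40 over all 46. Over the other alternatives the adjusted p ran from 2.11e-06 without the filter on low counts to 0.505.

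After ND4L silencing PRDX5 was at 78.5, 72.9, 85.8 and 86.1 CPM, also above every control library, as upward in 2.71% of genes. The log2 fold change of 0.37 (SE 0.090) missed the threshold with an adjusted p of 0.0559 in edgeR, and 30 genes (0.148%) were called in this comparison. With the replicate number as a block it passed (adjusted p = 0.0373, edgeR), as it did in 6 of 11 alternatives in all and in 10 of the 46 fits that left out 1 library. With DESeq2 the adjusted p was 0.0282, and within batch 2 it was 0.0207 in edgeR at a log2 fold change of 0.52, against 0.23 and 0.998 in batch 1. Over all alternatives the adjusted p for ND4L ran from 2.52e-06, again without the filter, to 0.998. PRDX5 libraries did not overlap the control after ATP6 silencing either (67.5, 84.7, 66.4 and 72.1 CPM; log2 fold change 0.22, SE 0.090, adjusted p = 0.468, edgeR; 1.51% of genes upward) or after COX2 silencing (76.6, 69.9 and 70.9 CPM; 0.20, SE 0.098, adjusted p = 0.359; 3.69% upward). In the remaining treatments the PRDX5 log2 fold change was 0.21 for COX1, 0.17 for ATP8 and COX3, 0.15 for ND1, 0.10 for ND2 and 0.05 for ND3. The control had the lowest PRDX5 mean of the 12 conditions, at 62.2 ± 2.93 CPM (SD, n = 4), and the smallest SD. ND4L (80.8 ± 6.35 CPM; SD, n = 4) and CYTB (79.9 ± 6.95; SD, n = 4) were highest. Set against the mean of the other 10 treatments, PRDX5 was 0.19 higher after ND4L (SE 0.065, adjusted p = 0.292, edgeR) and 0.17 higher after CYTB silencing (SE 0.065, adjusted p = 0.540) on the log2 scale.

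**Figure D3:**
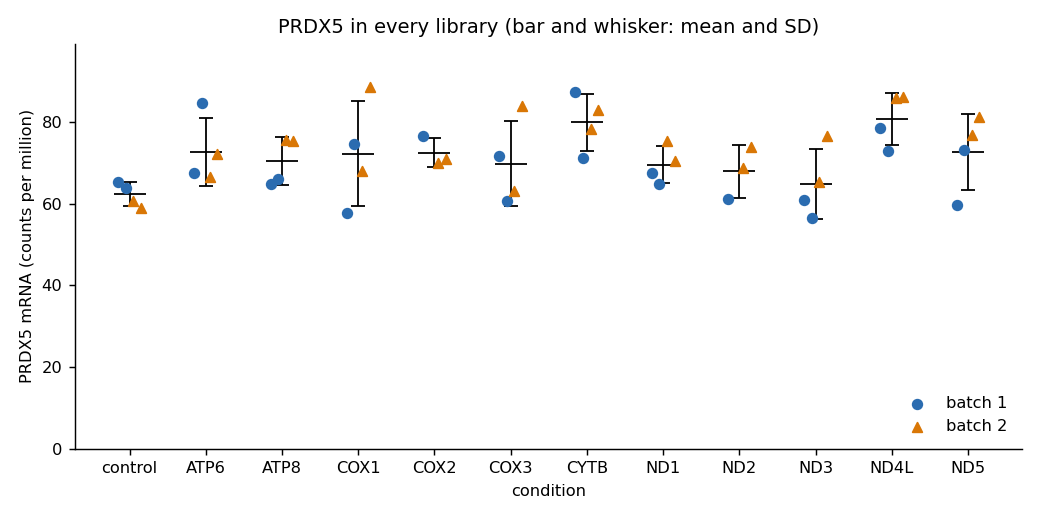
PRDX5 mRNA in CPM in every library of each condition; circles are batch 1, triangles batch 2, and bar and whisker give mean and SD. The CYTB libraries (71.1 to 87.3 CPM) and the ND4L libraries (72.9 to 86.1 CPM) lie above the control libraries (59.0 to 65.4 CPM).

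PRDX3 was not called in any of the 10 treatments by edgeR, with 1 unadjusted p under 0.05, nor by DESeq2. Its log2 fold change ran from -0.12 after ND4L silencing (SE 0.053, adjusted p = 0.305, edgeR; below the control of the batch in 3 of 4 libraries) to 0.07 after ND1 silencing (SE 0.053, adjusted p = 0.663; above in 3 of 4 libraries). The ND1 libraries held 409, 476, 441 and 425 CPM and the ND4L libraries 375, 441, 357 and 372 CPM, and both sets overlapped the control. The 95% confidence intervals over the 10 treatments lay between -0.22 and 0.17, so changes beyond these bounds were outside the interval of each single treatment. Against the mean of the other 9 treatments, with ND5 left out of the reference after the data were seen, PRDX3 was 0.12 higher after ND1 silencing (SE 0.039, unadjusted p = 0.00247, adjusted p = 0.279, edgeR).

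The cytosolic peroxiredoxins PRDX1 and PRDX2 were highest after ND1 silencing. PRDX1 (chromosome 1, 45511036 to 45523047, minus strand) was at 428, 445, 407 and 331 CPM there, against 381, 391, 339 and 299 CPM in the control, with 4 of 4 libraries above the control of their batch (log2 fold change 0.19, SE 0.061, adjusted p = 0.159, edgeR). PRDX2 (chromosome 19, 12796820 to 12801859, minus strand) was at 334, 366, 328 and 319 CPM against 331, 328, 304 and 295 CPM (0.10, SE 0.045, adjusted p = 0.359). The libraries of both overlapped the control. In the other 9 treatments the PRDX1 log2 fold change ran from -0.01 (COX1) to 0.15 (COX3), and that of PRDX2 from -0.03 (COX1) to 0.09 (ATP8).

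Of the superoxide dismutases, SOD1 (chromosome 21, 31659622 to 31668931, plus strand) was at 386, 427, 388 and 355 CPM after ND1 silencing and at 364, 356, 326 and 299 CPM in the control (log2 fold change 0.21, SE 0.064, adjusted p = 0.140, edgeR; above the control of the batch in 4 of 4 libraries). It had an unadjusted p under 0.05 in 6 of the 10 treatments. Over all 10, the log2 fold change of SOD1 ran from 0.05 (COX2) to 0.21 (ND1), and its control mean of 336 ± 29.5 CPM (SD, n = 4) was the lowest of the 12 conditions. These treatments share their control libraries, and 9.84% of all tests of a gene had an unadjusted p under 0.05. SOD2, the matrix enzyme (chromosome 6, 159669057 to 159745186, minus strand), had no unadjusted p under 0.05. It ranged from -0.07 after ND4L silencing (adjusted p = 0.636) to 0.13 after ND2 silencing (adjusted p = 0.998), where the libraries held 74.8, 83.3 and 84.6 CPM against 73.1, 76.8, 68.9 and 76.8 CPM in the control.

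In the mitochondrial thioredoxin system, TXNRD2 (chromosome 22, 19875517 to 19941992, minus strand) was at 59.2, 57.9, 52.4 and 48.0 CPM after ND4L silencing and at 47.8, 50.9, 45.0 and 42.7 CPM in the control (log2 fold change 0.22, SE 0.063, adjusted p = 0.0959, edgeR). All 4 ND4L libraries were above the control of their batch, although replicate 4 overlapped the control libraries of batch 1. DESeq2 gave an adjusted p of 0.0382 for this value, in a range of 0.0382 to 0.998 over the alternatives, the highest in batch 1 alone. The 10 comparisons share their control libraries, and 9.84% of all tests of a gene had an unadjusted p under 0.05. TXNRD2 had such a p in 7 of the 10 treatments, and its control mean of 46.6 ± 3.54 CPM (SD, n = 4) was the lowest of the 12. TXN2, its substrate (chromosome 22, 36467036 to 36482030, minus strand), had none, and its log2 fold changes stayed between -0.02 (COX1) and 0.08 (COX2) around a control level of 74.7 ± 3.13 CPM (SD, n = 4).

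The glutathione peroxidases were not called in any of these treatments, with an unadjusted p under 0.05 in 0 of 10 for GPX1 and 1 of 10 for GPX4, and DESeq2 called neither. GPX1 (chromosome 3, 49357171 to 49358600, minus strand; annotated as a polymorphic pseudogene in this release) ran from -0.04 (ND3) to 0.10 (ATP6) with a smallest adjusted p of 0.578, and GPX4 (chromosome 19, 1103926 to 1106791, plus strand) from -0.01 (COX3) to 0.14 (ND1) with a smallest adjusted p of 0.383. After ND1 silencing GPX4 was at 246, 285, 253 and 279 CPM against 254, 248, 242 and 223 CPM in the control. Per treatment, the median log2 fold change of the 10 members ran from 0.02 (ND3) to 0.10 (ND1), whereas the median over all genes was 0.00 in each.

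**Figure D4:**
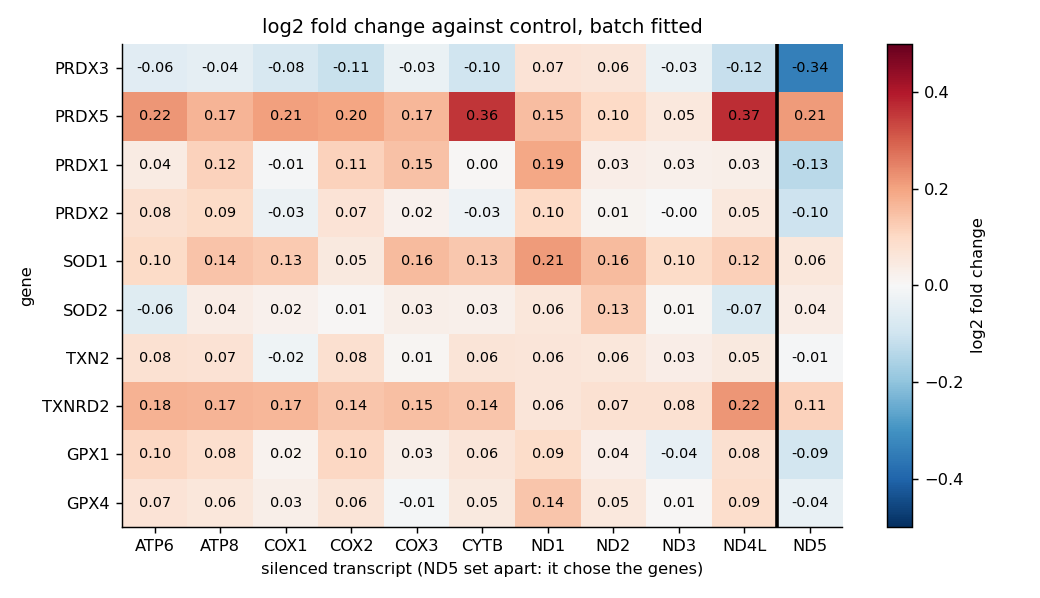
log2 fold change of each gene (rows) against control after silencing of each mtDNA-encoded mRNA (columns), with the batch in the model; red is higher and blue lower than control, and ND5, which chose the genes, stands apart at the right. PRDX3 after ND5 silencing (-0.34) and PRDX5 after CYTB (0.36) and ND4L silencing (0.37) are the values farthest from 0.

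Tests that pool or separate the treatments called no member. For the mean of the 10 treatments against the control, edgeR called 0 of 10 members (0.395% of all genes) and DESeq2 0 of 10, with 3 of 10 at an unadjusted p under 0.05 against 12.6% of all genes. These 3 were PRDX5 (log2 fold change 0.20, SE 0.069, adjusted p = 0.166), TXNRD2 (0.14, SE 0.047, adjusted p = 0.173) and SOD1 (0.13, SE 0.048, adjusted p = 0.213). The edgeR test for any difference among the control and the 10 treatments called 0 of 10 (0.311% of all genes), with 5 at an unadjusted p under 0.05 (10.4% of all genes). These were PRDX5 (adjusted p = 0.204, edgeR), PRDX3 (0.340), PRDX1 (0.368), PRDX2 (0.440) and TXNRD2 (0.471). Each treatment against the mean of the others gave 0 calls of 100 in edgeR (0.0316% of all tests) and 0 in DESeq2, with 14 at an unadjusted p under 0.05 (6.42% of all tests). With ND5 left out of that mean, edgeR again gave 0 calls of 100 (0.0326% of all tests), with 13 at an unadjusted p under 0.05 (6.32%).

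Most members differed between the batches. Of the 10 members, 9 were called between batch 2 and batch 1 in edgeR, as were 57.1% of all genes. The 8 that were lower in batch 2, where 27.9% of all genes were, included PRDX1, which fell from 405 ± 33.8 CPM (SD, n = 22) in batch 1 to 325 ± 26.1 CPM (SD, n = 24) in batch 2 (log2 fold change -0.32, SE 0.025, adjusted p = 1.31e-15, edgeR). PRDX2 followed with -0.12, SOD1 with -0.11, TXNRD2 and TXN2 with -0.10, GPX1 with -0.09, PRDX3 with -0.08 and GPX4 with -0.06 (adjusted p = 0.0370 for GPX4, the least of these calls, which was lost in 12 of 46 fits without 1 library). PRDX5 rose from 68.5 ± 8.34 CPM (SD, n = 22) to 73.9 ± 8.13 CPM (SD, n = 24) (0.12, SE 0.038, adjusted p = 0.00766, edgeR; 29.2% of genes were higher in batch 2). SOD2 was at 74.1 ± 4.07 CPM (SD, n = 22) and 75.4 ± 5.43 CPM (SD, n = 24) and was not called (adjusted p = 0.548). In the 8 treatments with 2 libraries in each batch, the difference of the treatment effect between batches was called for 0 of 80 tests of a member and for 0% of all genes in edgeR. At an unadjusted p under 0.05 there were 6 of 80, against 5.41% of all tests. The smallest adjusted p, that of GPX1 after ND3 silencing, was 0.431 (edgeR).

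Among themselves, the members varied together to differing degrees. Over the 46 libraries, with the batch mean removed from log2 CPM, the median Pearson r of the 45 pairs was 0.287 (0.307 without the ND5 libraries). GPX1 and GPX4 were closest (r = 0.81), then PRDX2 and GPX1 (r = 0.75), and SOD2 and GPX1 were lowest (r = -0.32). Without the ND5 libraries GPX1 and GPX4 were again closest (r = 0.79), but the lowest pair was PRDX3 and TXNRD2 (r = -0.42). PRDX3 was nearest to PRDX1 (r = 0.62, and 0.43 without the ND5 libraries) and had a negative r with PRDX5 and TXNRD2 (-0.29 each). Nothing is read from the r with PRDX1, since it is the highest of the PRDX3 pairs and uses the ND5 libraries. The median r of PRDX3 with 10084 expressed genes was 0.0247 over the 46 libraries and was not computed without ND5. No such median was computed over all pairs of genes. PRDX5 was nearest to TXNRD2 (r = 0.58) over all 46 libraries and to GPX1 (r = 0.62) without the ND5 libraries. These points share library, depth and treatment, and no p-value is attached. Of 10084 protein-coding genes with a mean of at least 10 CPM, those most like PRDX3 over the 46 libraries were IMP3 (r = 0.81), GLA (0.78), NOL11 (0.77), RAD51C (0.74) and TIMM9 (0.73). Their log2 fold changes after ND5 silencing ran from -0.15 to -0.23, and nothing is read from this, since the ranking used the ND5 libraries. Over the 42 libraries without ND5, others took their place, namely CDK1 (0.83), TMEM167A (0.82), PAICS (0.81), SRP9 (0.80) and SKP1 (0.79), with log2 fold changes from -0.11 to 0.01 after ND5 silencing, so the list depends on whether the ND5 libraries are included.

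Other genes of the antioxidant system were listed as well, and 54 of 56 were tested. Over the 10 treatments other than ND5, 4 of 540 tests were called higher and 12 lower (2.96%, against 0.172% of all tests of a gene). Nothing is read from the difference of these shares, since the lists were chosen with earlier results of these data known. TXNIP, which binds and inhibits thioredoxin, accounts for 10 of the 12, 1 for each treatment, from -0.78 after COX1 silencing (SE 0.079, adjusted p = 9.34e-10, edgeR; 23.0 ± 6.10 against 39.1 ± 6.06 CPM; SD, n = 4 each) to -0.42 after ND3 silencing (adjusted p = 0.0165). All 10 calls use the same 4 control libraries, so they are not independent of each other. Those controls received no morpholino, and the effect of a morpholino as such was not tested. GSS, which makes glutathione, was higher after silencing of COX2 (0.28, adjusted p = 0.00999), CYTB (0.27, adjusted p = 0.00782) and COX3 (0.24, adjusted p = 0.0186). HMOX1, heme oxygenase, was higher after COX2 silencing (0.66, adjusted p = 0.0316; 108 ± 29.1 CPM with n = 3 against 74.1 ± 18.5 CPM with n = 4, SD). The sestrins SESN1 and SESN3 were lower, SESN1 after COX3 (-0.25, adjusted p = 0.0271) and SESN3 after COX2 silencing (-0.28, adjusted p = 0.0316). Of these 16 calls, 10 were lost in at least 1 fit that left out a library. All 16 were lost without the batch term, although the log2 fold changes kept their direction (-0.77 for TXNIP after COX1 and 0.26 for GSS after CYTB silencing, for example). Within either batch, where each group has at most 2 libraries, the calls of TXNIP after COX1, CYTB and ND4L silencing remained and the other 13 were lost, again with the same direction (TXNIP after COX3 silencing was at -0.41 in batch 1 and -0.45 in batch 2). After ND5 silencing, without a test, the lowest log2 fold changes were those of TXNIP (-0.70), ME3 (-0.47, at 0.168 CPM) and SESN2 (-0.21) and the highest those of MSRB2 (0.21), SRXN1 (0.20), the sulfiredoxin that restores overoxidised peroxiredoxins, and CCS (0.19). The median of the 54 was 0.02.

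Promoters of 7 members (PRDX3, PRDX5, PRDX2, SOD2, TXNRD2, GPX1 and GPX4), from 250 bases before to 50 after each start in RefSeq (GRCh38.p14), were searched on both strands for the core of the antioxidant response element, TGACNNNGC, and for the palindromic NRF1 motif. None of them held either. Of 35116 promoters of the same length, 13.3% held the antioxidant response element core and 1.24% the NRF1 motif. These shares are per promoter, and several of the members have multiple promoters. With so few promoters, whether the members lack these motifs was not tested. PRDX1, SOD1 and TXN2 were not searched.

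Reads of copies and neighbours could touch some of these values, as strand use in the counting is not given in the sources used here. The 4 listed pseudogene copies of PRDX3 held counts equal to 0.260% of those of PRDX3 itself, 0.256% in the control and 0.371% after ND5 silencing. GPX1P1 held 1.09% of the GPX1 counts. PRDX1 shares 24.9% of its exon bases with MMACHC on the opposite strand, and SOD2 6.93% with WTAP and with its own second entry. PRDX2 shares 14.1% with an antisense gene that had 0 counts, and PRDX3, PRDX5, SOD1, TXN2, GPX1 and GPX4 overlap no exon of another gene.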

How the data were processed

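RNA-seq was performed on 46 libraries of HEK293T cells, and the authors deposited whole-number counts of reads per gene, without normalization, together with a gene length in bases. The submitters' processing notes name GRCh38.p12, R 4.3.0, DESeq2 1.40.2 and limma 3.56.2; the aligner, the counter and the use of strand are not given in the sources used here. The gene lengths of all 10 members equal the exon unions of GENCODE release 29, whose GRCh38 coordinates are used. Conditions and replicates were taken from the sample records and batches from the study's methods.

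Testing used edgeR 4.0.16 under R 4.3.3 (TMM scaling, quasi-likelihood F test, filterByExpr with a minimum count of 10, terms for 12 conditions and 2 batches, all 46 libraries). Adjustment was by Benjamini-Hochberg over the 20272 genes of each contrast, and a gene was called at an adjusted p under 0.05. The script was tested on simulated data. CPM uses the TMM library sizes, and log2 CPM a prior count of 2. Alternatives were no batch term, the replicate number as a block, DESeq2 1.42.0, RLE, other filters, library sizes from nuclear genes, COX3 replicate 4 drawn down to the median depth, each batch alone, only the libraries compared, and leaving out each library. Chosen after seeing the data were a mean of the other treatments without ND5, also with each library left out, and the block in the interaction test. None of the 66 replicate pairs agreed within sampling noise (chi-square per degree of freedom 3.47 to 23.4).

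Libraries with the same replicate number deviated together from their condition means (r from 0.168 to 0.809 over 242 pairs, mean 0.514). Libraries of the same batch with another number did so with a mean of 0.445. Once the batch was removed, the means were 0.0421 and -0.103. Named genes are all members, the listed antioxidant genes called in at least 1 of 10 treatments (at most 8), the 3 lowest and 3 highest after ND5 silencing, and the 5 genes most like PRDX3. The members and lists were chosen with earlier results of these data known. Morpholino sequences come from the study's supplement. Proteins were not analysed here, and the exon overlap of TXNRD2 is not reported here.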

Additional observations from a re-analysis of the deposited data

Results flagged for a closer look

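In 7 of the 100 groups of 4 libraries examined, 1 library lay apart from the other 3 in CPM by a Dixon test, which chance does in about 1 group in 20. The groups hold 2 libraries of each batch, and most members differ between batches. As percent of the batch control, 6 of the 90 treatment groups had a library apart, and in 0 of the 7 was it the same library, so these values mark libraries far from the others in CPM only. The values in CPM are 468 for PRDX3 in ATP8 replicate 2 (others 380 to 390), 412 for SOD1 in ND4L replicate 2 (others 346 to 352), 325 for SOD1 in ND5 replicate 1 (others 354 to 358), 82.1 for SOD2 in ND1 replicate 4 (others 74.7 to 75.6), 65.1 for TXN2 and 273 for GPX1 in COX3 replicate 3 (others 77.4 to 78.6 and 314 to 318), and 56.2 for TXNRD2 in ND5 replicate 2 (others 48.1 to 49.0). The PRDX3 value in ATP8 replicate 2 was the second highest of the 46 libraries for this gene.

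For the 3 treatments without an interaction test, the libraries of batch 1 and of batch 2 lay on opposite sides of the control of their batch in 9 of 30 cases, a difference that was not tested. By member, these were 6 of 10 after ND2 silencing, 3 of 10 after ND5 silencing and 0 of 10 after COX2 silencing, while 32.4%, 16.5% and 25% of all genes tested did so. As batch 1 minus batch 2 in percentage points of the batch control, these are, after ND2 silencing with 1 library in batch 1, PRDX5 (-24.8), SOD2 (-15.4), TXNRD2 (-14.5), GPX1 (-14.5), GPX4 (-12.5) and PRDX2 (-7.92), and, after ND5 silencing, SOD1 (-19.9), SOD2 (-17.1) and TXN2 (5.17). PRDX3 was not among them.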

How the results depend on the processing

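PRDX3 kept its direction after ND5 silencing under the 11 alternatives run, with a log2 fold change of -0.44 in batch 1 alone and -0.25 in batch 2 alone as the extremes, and -0.38 to -0.29 over the 46 fits that left out 1 library. Against the control, the number of members called among 100 tests was 1 as reported. It was 0 without the batch term (0.0113% of all tests of a gene under that setting; PRDX5 after CYTB silencing stayed at 0.36 with an adjusted p of 0.264, edgeR) and in batch 1 alone (0.022%), 2 with the replicate block (PRDX5 after CYTB and ND4L silencing; 0.414%) and with a minimum count of 50 (0.367%), 3 in DESeq2 (1.01%), 4 without the filter (0.433%) and 5 with only the libraries compared (0.869%). Leaving out 1 library gave 0 to 2, with 0.0281 to 0.275% of all tests called. The fits with 0 were those without control replicates 2, 3 or 4, ATP8 replicate 4, CYTB replicates 1, 2 or 4, ND2 replicate 1 or ND5 replicate 3. Without the filter, 4 of 100 tests against the mean of the others (0.151% of all), 3 of 10 for any difference (PRDX5, PRDX1 and PRDX3; 1.83% of all genes) and 2 of 10 for the mean of the 10 treatments (PRDX5 and SOD1; 0.788%) were called, against 0 in each as reported. Tests against the mean of the others gave 0 to 1 calls on leaving out 1 library (0.0287 to 0.0484% of all), PRDX3 after ND1 silencing being called without ATP8 replicate 2 or ND1 replicate 1. Nothing is read from these calls, since that mean holds the ND5 libraries by which the group was chosen. With ND5 left out of it, 0 of 100 were called with all libraries, and again 0 whichever of the 46 libraries was dropped, where the adjusted p of PRDX3 after ND1 silencing ran from 0.0739 to 0.831. The cause of these differences was not tested. The replicate block left the other counts of calls it was run for, the interaction test included, at 0. Batch calls numbered 8 or 9 of 10 in all fits run. Of 269 tested values of single named genes under alternatives other than leaving out a library, 215 kept direction and side of the threshold, 46 lost the call, 8 gained it and 0 changed sign. Of 99 values of the other 9 members after ND5 silencing, which carry no test, 4 changed sign, each in batch 1 alone, namely SOD1 (-0.09), SOD2 (-0.09), TXN2 (0.03) and GPX4 (0.02). On leaving out 1 library, 3 of 414 such values changed sign, SOD2 (-0.01) and TXN2 (0.02) without ND5 replicate 4 and TXN2 (0.01) without control replicate 1. Depth limits TXNRD2 most: its lowest count in a library was 902, its counting error was 2.08 to 3.15% of the mean by condition, and in 3 of 12 conditions the SD between libraries was below that error, as it was in 1 condition each for PRDX2 and SOD2. Each batch alone, the block and a missing batch term give no value for the batch test, nor do each batch alone and a missing batch term for the interaction test, which was not run in DESeq2 or with 1 library left out.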
